A study of Mus musculus with 10 samples.

Results

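Chemokine receptors that T cells can carry were followed in CD8+ T cells that had been cultured with tumor cells in the absence or presence of sodium acetate (NaAc). The 9 genes were picked by name, as Ccr1, Ccr2, Ccr4, Ccr8, Cxcr3, Cxcr4, Cxcr5, Cx3cr1 and Ccrl2, out of 57825 genes in the deposited table. Of these 9 receptors, 4 were higher in the acetate group (Ccr8, Cxcr5, Ccr1 and Ccr4), 0 were lower, 4 did not pass the test, and 1 (Cx3cr1) lay below the minimum level for testing; of all genes tested, 17.6% were higher and 19% lower. No receptor was lower at an unadjusted p under 0.05 in limma either (0 of 8), nor with limma's voom on recovered fragments (0 of 8). The 2 groups had 5 samples each. CD8+4T1 held mouse splenic CD8+ T cells, labelled as cytotoxic T lymphocytes and co-cultured with 4T1 cells, a mouse mammary carcinoma line; CD8+4T1+NaAc held the same kind of cells, co-cultured with acetate. By the study's methods the spleens came from female Balb/c mice, and the T cells of both groups were activated for 12 h on plate-bound anti-CD3 with IL-2 and anti-CD28. They were then kept for 24 h with or without 5 mM NaAc and placed with 4T1 cells for 48 h, and the labels date all samples to day 3. RNA was taken from the purified CD8+ T cells. Nothing in the sources used here says that the samples came from separate animals or cultures, so that p-values measure the spread between these samples, which may be technical.

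Chemokine receptors are membrane proteins that couple to inhibitory G proteins and steer cells along gradients of small secreted proteins, the chemokines. On T cells the set of receptors shifts with activation and differentiation and decides which tissue zones, inflamed sites or tumors a cell can enter. Ligand binding releases G protein subunits that switch on phosphoinositide 3-kinase gamma and small GTPases of the Rac and Rap families. Receptor kinases (GRK), arrestins and regulators of G protein signalling (RGS) then shut the signal down.

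Expression was deposited as FPKM, in which a gene's fragments are divided by its length and by the depth of its library, so that levels can be set side by side between genes. The values referred to between 16306447 and 18853726 fragments per sample, and depth did not differ beyond the spread of the replicates (two-sided exact permutation, p = 0.373, n = 5 per group). The listed genes held 95.5 to 97.9% of these fragments in CD8+4T1 and 89.8 to 92.1% in CD8+4T1+NaAc, without overlap. The 15710 genes whose mean reached 0.5 FPKM entered a limma fit of log2(FPKM + 0.1), and a gene was called higher or lower at a Benjamini-Hochberg adjusted p under 0.05 over all of them. Changes on this scale are log2 fold changes of CD8+4T1+NaAc over CD8+4T1 with their standard error (SE), and the added 0.1 makes them too small for weakly expressed genes. Cd8a stood at 78.6 ± 2.34 FPKM in CD8+4T1 and 76.5 ± 4.37 FPKM in CD8+4T1+NaAc (mean ± SD, n = 5), and the B cell gene Ms4a1 was at 0.0191 FPKM or less in every sample. Genes of 4T1 and epithelial cells were more abundant with acetate: the summed FPKM of 15 such genes ran from 25.9 to 42.9 in CD8+4T1 and from 150.0 to 334.5 in CD8+4T1+NaAc, and 9 of the 11 tested were called higher, of which Krt7 and Cldn3 were tested through their acetate samples alone. In bulk RNA, fewer cells of a type and less RNA per cell cannot be told apart.

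The 9 receptor genes lie on few chromosomes, with 7 on chromosome 9, Cxcr4 on chromosome 1 and Cxcr3 on chromosome X. Positions in the deposited table differ from GRCm38 and its build is not given in the sources used here. As listed there, Ccr4 spans chr9:114319384-114333984, Ccr8 chr9:119921180-119923972, Cxcr5 chr9:44423084-44473174 and Ccr1 chr9:123762161-123768729. The Cxcr5 gene model shares 110 bases with Bcl9l on the opposite strand. Bcl9l was at a mean of 7.67 FPKM over all samples with a change of 0.18 (limma, adjusted p = 0.0863), and the strand setting of the counting is not given in the sources used here. The listed span of Cx3cr1 overlaps 9 other genes, among them Csrnp1 at a mean of 62.0 FPKM, and the other 7 receptor genes overlap none.

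Promoter sequence from RefSeq (GRCm38.p6) was available for 8 of the 9 receptors. The 250 bases before the annotated start are shown for Ccr4, the most abundant of the receptors, and Ccr8, the receptor with the largest change, because both were higher with acetate and both are known from type 2 and regulatory T cells. They are written 5′ to 3′ in the direction of the gene and end at the base before the start. Capitals mark a match to an AP-1 motif (TGANTCA) in Ccr4, on the minus strand at chr9:114496545-114496794, and a match to a GATA motif (AGATAA, read on the opposite strand) in Ccr8, on the plus strand at chr9:120091883-120092132.
Ccr4: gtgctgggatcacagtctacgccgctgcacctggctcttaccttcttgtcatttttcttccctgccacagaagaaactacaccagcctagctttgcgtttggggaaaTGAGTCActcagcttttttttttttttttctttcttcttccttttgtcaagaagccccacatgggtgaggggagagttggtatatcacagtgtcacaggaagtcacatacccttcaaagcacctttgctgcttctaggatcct
Ccr8: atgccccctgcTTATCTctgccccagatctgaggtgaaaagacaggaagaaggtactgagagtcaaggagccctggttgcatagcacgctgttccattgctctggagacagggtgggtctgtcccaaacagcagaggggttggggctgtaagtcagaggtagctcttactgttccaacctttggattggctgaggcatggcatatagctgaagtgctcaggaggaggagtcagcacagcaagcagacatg

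The AP-1 match in Ccr4 began 143 bases before the start, and 6.75% of 32851 RefSeq promoter windows of this length hold this motif on either strand. The GATA match in Ccr8 began 239 bases before the start, and 9.99% of windows hold that motif. Searches on both strands for STAT (TTCNNNGAA, in 7.02% of windows), NFAT (GGAAAA, in 20.4%), NF-kB (GGGA, any 2 bases, TTCC, in 1.21%) and T-box (TCACACC, in 3.33%) motifs gave no match in either window. None of the 6 motifs was matched in the windows of Ccr1, Cxcr3, Cxcr4 and Cx3cr1. The Ccr2 window held a GATA and an NFAT match, and Ccrl2 windows held GATA and T-box matches. A match gives letters in a window and not a bound site.

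Ccr4, the receptor for Ccl17 and Ccl22 that is known from type 2, regulatory and skin-homing T cells, was the most abundant of the 9 receptors in both groups and was higher with acetate. Its levels were 10.3, 13.5, 11.7, 11.8 and 15.4 FPKM in CD8+4T1 replicates 1 to 5, and 23.2, 17.2, 21.2, 26.6 and 18.8 FPKM in CD8+4T1+NaAc replicates 1 to 5. Every acetate sample lay above every sample without acetate, with the nearest values at 15.4 and 17.2 FPKM. The mean went from 12.5 ± 1.94 to 21.4 ± 3.70 FPKM (SD, n = 5 per group), a ratio of 1.71. The fitted change was 0.76 (SE 0.13, 95% interval 0.47 to 1.05, limma, adjusted p = 0.00116). These values rested on 533 to 1391 fragments per sample, more than for any other of the 9 receptors.

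Ccr8, the receptor for Ccl1 and a marker of tissue and tumor regulatory T cells and of type 2 T cells, had the largest fitted change among the receptors tested. CD8+4T1 samples were at 1.48, 1.07, 0.731, 0.826 and 0.670 FPKM, and CD8+4T1+NaAc samples at 2.54, 3.20, 2.68, 3.12 and 2.10 FPKM. The groups did not overlap, and the lowest acetate sample exceeded the highest sample without acetate. Mean levels of 0.956 ± 0.330 and 2.73 ± 0.450 FPKM (SD, n = 5) gave a ratio of 2.86 and a change of 1.46 (SE 0.20, 95% interval 1.01 to 1.91, limma, adjusted p = 0.000338). The counts behind them were low, at 13 to 29 fragments per sample in CD8+4T1 and 41 to 71 in CD8+4T1+NaAc. With 1 added to the FPKM in place of 0.1, Ccr8 changed by 0.94 and Cxcr5 by 1.03, so that the rank of Ccr8 depended on this setting.

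Ccr1, a receptor for Ccl3, Ccl5, Ccl6 and Ccl9 that is best known from myeloid cells, was also called higher. Without acetate it was at 0.338, 0.162, 0.498, 0.386 and 0.406 FPKM, and with acetate at 0.867, 0.449, 0.813, 0.876 and 0.914 FPKM. CD8+4T1+NaAc replicate 2 lay apart from the other 4 acetate samples and within the range of CD8+4T1, so that the groups overlapped. The change was 0.97 (SE 0.30, 95% interval 0.29 to 1.64, limma, adjusted p = 0.0289) on 8 to 43 fragments per sample. Ccr1 passed the minimum level only through its acetate samples, since its CD8+4T1 mean was 0.358 FPKM. The call was lost when any of 4 samples was left out, with adjusted p of 0.0550 without CD8+4T1 replicate 2 and 0.0639, 0.0708 and 0.0667 without CD8+4T1+NaAc replicates 3, 4 and 5.

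Ccr2, the Ccl2 receptor that draws monocytes and effector T cells to inflamed tissue, did not differ detectably. Its range was 0.512 to 0.735 FPKM (median 0.636) in CD8+4T1 and 0.436 to 0.839 FPKM (median 0.643) in CD8+4T1+NaAc. The acetate range enclosed the other range on both sides. With a change of 0.03 and a 95% interval of -0.45 to 0.52 (limma, adjusted p = 0.923), these samples leave room for a moderate change in either direction.

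Cxcr5, the Cxcl13 receptor that takes B cells, follicular helper T cells and a follicular subset of CD8+ T cells into B cell follicles, showed the smallest adjusted p of the 9 receptors. It was at 2.77, 3.11, 2.91, 3.02 and 3.47 FPKM in CD8+4T1 and at 6.78, 7.21, 6.66, 8.09 and 7.66 FPKM in CD8+4T1+NaAc. The groups were wide apart, with 3.47 FPKM as the highest value without acetate and 6.66 FPKM as the lowest with it. From 3.06 ± 0.267 to 7.28 ± 0.603 FPKM (SD, n = 5), the mean rose 2.38-fold, with a change of 1.23 (SE 0.08, 95% interval 1.05 to 1.40, limma, adjusted p = 9.4e-06). Fragments numbered 154 to 191 per sample without acetate and 366 to 456 with it. Of the B cell markers, Ms4a1 reached at most 0.0191 FPKM, and the summed FPKM of 7 such genes ran from 4.12 to 4.98 in CD8+4T1 and from 4.98 to 6.34 in CD8+4T1+NaAc, most of it Cd79b, with 0 of the 2 tested called in limma (adjusted p = 0.12 for Cd79b, 0 of 2 at an unadjusted p under 0.05, 0 of 2 with voom) and 1 of 2 called higher when samples were brought to the same FPKM total. The part of B cells in the Cxcr5 level was not tested.

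Cxcr3, the receptor for Cxcl9, Cxcl10 and Cxcl11 that guides effector CD8+ T cells into inflamed tissue and tumors, was not called. CD8+4T1 samples were at 1.42, 1.59, 1.35, 1.54 and 1.05 FPKM and CD8+4T1+NaAc samples at 2.37, 2.08, 1.47, 1.5 and 1.70 FPKM. Acetate replicates 1, 2 and 5 lay above all samples without acetate, while replicates 3 and 4 fell within their range. The change was 0.36 (SE 0.16, 95% interval 0.00 to 0.72, limma, adjusted p = 0.107) on 30 to 70 fragments per sample.

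Cxcr4, the Cxcl12 receptor that holds cells in bone marrow and other stroma, was the second most abundant of the 9 receptors in both groups. The group means were nearly equal. Its level was 10.2 ± 1.74 FPKM in CD8+4T1 (range 8.05 to 12.7) and 10.3 ± 1.35 FPKM in CD8+4T1+NaAc (range 8.65 to 11.8, SD, n = 5). All acetate samples lay within the range of the other group. The change of 0.01 had an SE of 0.12 and a 95% interval of -0.27 to 0.28 (limma, adjusted p = 0.968), on 254 to 380 fragments per sample.

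Ccrl2, an atypical receptor that binds chemerin (Rarres2) without the usual G protein signal, was likewise not called. It stood at 2.98 ± 0.353 FPKM in CD8+4T1 (range 2.59 to 3.45) and at 3.22 ± 0.207 FPKM in CD8+4T1+NaAc (range 3.03 to 3.56, SD, n = 5). The ranges overlapped between 3.03 and 3.45 FPKM. The change was 0.11 (SE 0.09, 95% interval -0.09 to 0.32, limma, adjusted p = 0.378).

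Cx3cr1, the fractalkine (Cx3cl1) receptor that marks highly cytotoxic effector CD8+ T cells, was near the detection limit throughout. CD8+4T1 samples were at 0, 0.0382, 0.0272, 0.0539 and 0.0942 FPKM and CD8+4T1+NaAc samples at 0.182, 0.0706, 0.148, 0.0656 and 0.134 FPKM, with 16 fragments in all in the former group and 46 in the latter. Replicate 5 of CD8+4T1 lay above 2 of the 5 acetate samples. Its mean of 0.0813 FPKM was below the minimum for testing. The exact permutation test gave p = 0.0317 for the difference of means (two-sided, 0.0476 after Benjamini-Hochberg adjustment over 3 single values), and limma without the minimum gave 0.63 (SE 0.26, adjusted p = 0.15). Leaving out 1 sample raised the permutation p to between 0.0556 and 0.0635 in 6 of 10 cases.

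**Figure D1:**
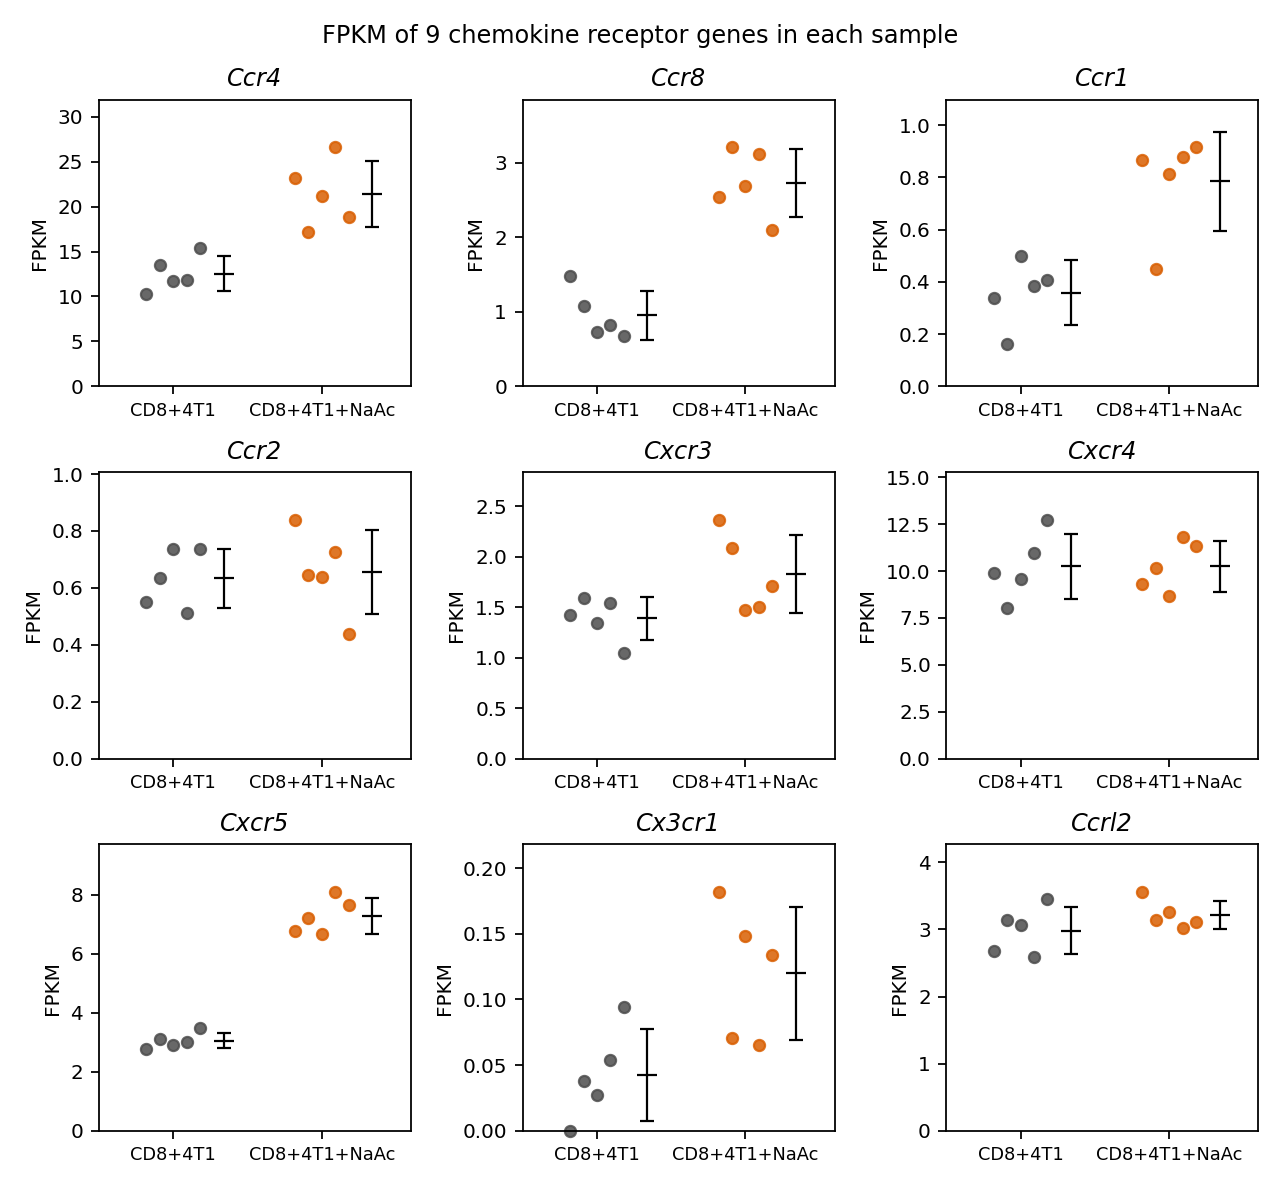
FPKM of each of the 9 receptor genes (vertical axes, linear and starting at 0) in the 5 CD8+4T1 samples (grey) and the 5 CD8+4T1+NaAc samples (orange), replicates 1 to 5 from left to right, with the mean ± SD as black bars. Ccr4, Ccr8 and Cxcr5 separate completely, Ccr1 does so except for acetate replicate 2 at 0.449 FPKM, and Cxcr4 lies between 8.05 and 12.7 FPKM in both groups.

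By count, 4 of the 8 receptors tested were called (50%), all of them higher, where 36.5% of all genes tested were called in either direction, 17.6% higher and 19% lower. A change over 1 was seen in 2 of them (Ccr8 and Cxcr5), against 4.87% of all genes higher by this much, 1.6% lower and 6.47% in either direction. The groups did not overlap for 3 receptors (Ccr4, Ccr8 and Cxcr5), all higher, against 13.1% of genes higher, 13.3% lower and 26.4% in either direction without overlap. The median change was 0.56 over the 8 receptors and -0.02 over all genes tested; Ccr1 entered these counts through its acetate samples alone. The smallest p that the exact permutation test allows with 5 against 5 samples is 0.00794, and Ccr4, Ccr8 and Cxcr5 each reached it.

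**Figure D2:**
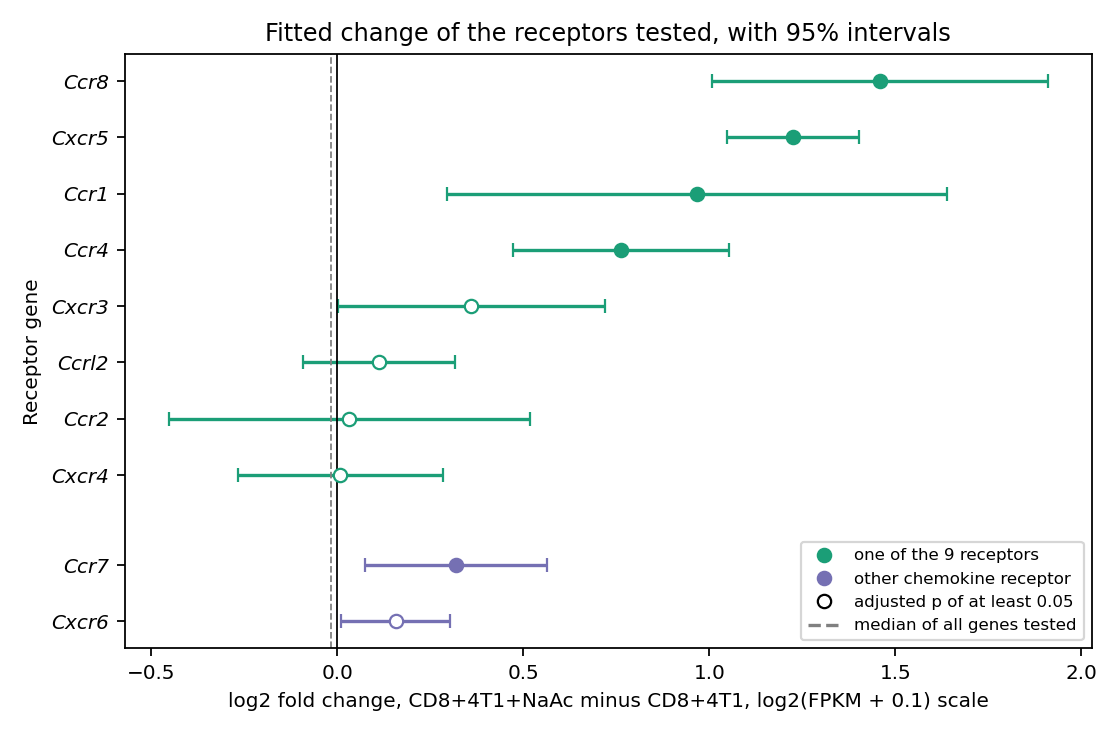
Fitted log2 fold change (horizontal axis, CD8+4T1+NaAc minus CD8+4T1 on the log2(FPKM + 0.1) scale) with 95% intervals for the 8 receptors tested (green) and the chemokine receptors Ccr7 and Cxcr6 (purple); filled points had an adjusted p under 0.05. Ccr8, Cxcr5, Ccr1 and Ccr4 lie to the right of 0 with their whole intervals, and the interval of Cxcr4 reaches from -0.27 to 0.28.

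The receptors covered a wide span of levels, and their order changed in part between the groups. In CD8+4T1 the means ran from Ccr4 and Cxcr4 through Cxcr5, Ccrl2, Cxcr3, Ccr8, Ccr2 and Ccr1 to Cx3cr1. Sample ranges overlapped between Ccr4 and Cxcr4 (Ccr4 was higher in 5 of 5 samples), between Cxcr5 and Ccrl2 (Cxcr5 higher in 3 of 5), between Cxcr3 and Ccr8 (Cxcr3 higher in 4 of 5) and between Ccr8 and Ccr2 (Ccr8 higher in 3 of 5). In CD8+4T1+NaAc the leading 3 were Ccr4, Cxcr4 and Cxcr5, with no overlap between neighbours. Below them the ranges of Ccrl2 and Ccr8 overlapped, as did those of Ccr8 and Cxcr3 (Ccr8 higher in 5 of 5) and those of Ccr1 and Ccr2.

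Ratios of receptors within a sample do not depend on the scaling of that sample. The Ccr4 to Cxcr4 ratio was 1.25 ± 0.251 in CD8+4T1 (range 1.04 to 1.67) and 2.11 ± 0.408 in CD8+4T1+NaAc (range 1.66 to 2.50, SD, n = 5), with ranges that overlapped narrowly at their ends. Cxcr5 stood at 0.304 ± 0.0480 of the Cxcr4 level without acetate and at 0.714 ± 0.0382 with it, without overlap. For Ccr8 over Cxcr3 the ratio went from 0.687 ± 0.208 (range 0.536 to 1.04) to 1.55 ± 0.412 (range 1.07 to 2.08). Ccr8 thus lay below Cxcr3 in 4 of 5 samples without acetate and above it in 5 of 5 with acetate.

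The share of fragments in listed genes fell with acetate, so the scaling of the samples bears on each change. When all samples were brought to the same FPKM total, the median of all genes tested moved from -0.02 to 0.16 and 6 receptors were called higher, Cxcr3 (0.53, adjusted p = 0.0253) and Ccrl2 (0.28, adjusted p = 0.0347) in addition to the other 4. Scaled to T cell markers, 5 were called, with Cxcr3 at 0.52 (limma, adjusted p = 0.0456) and Ccrl2 at 0.27 (adjusted p = 0.066). Over all genes the split was 2764 higher and 2978 lower as deposited, 4918 and 1386 at the same total, and 4442 and 1314 on T cell markers. Each of these scalings multiplies all genes of a sample by the same factor, so that the receptors and the median of all genes shift almost alike. The direction of Ccr8, Cxcr5, Ccr1 and Ccr4 relative to that median therefore stayed the same and cannot test their stability.

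**Figure D3:**
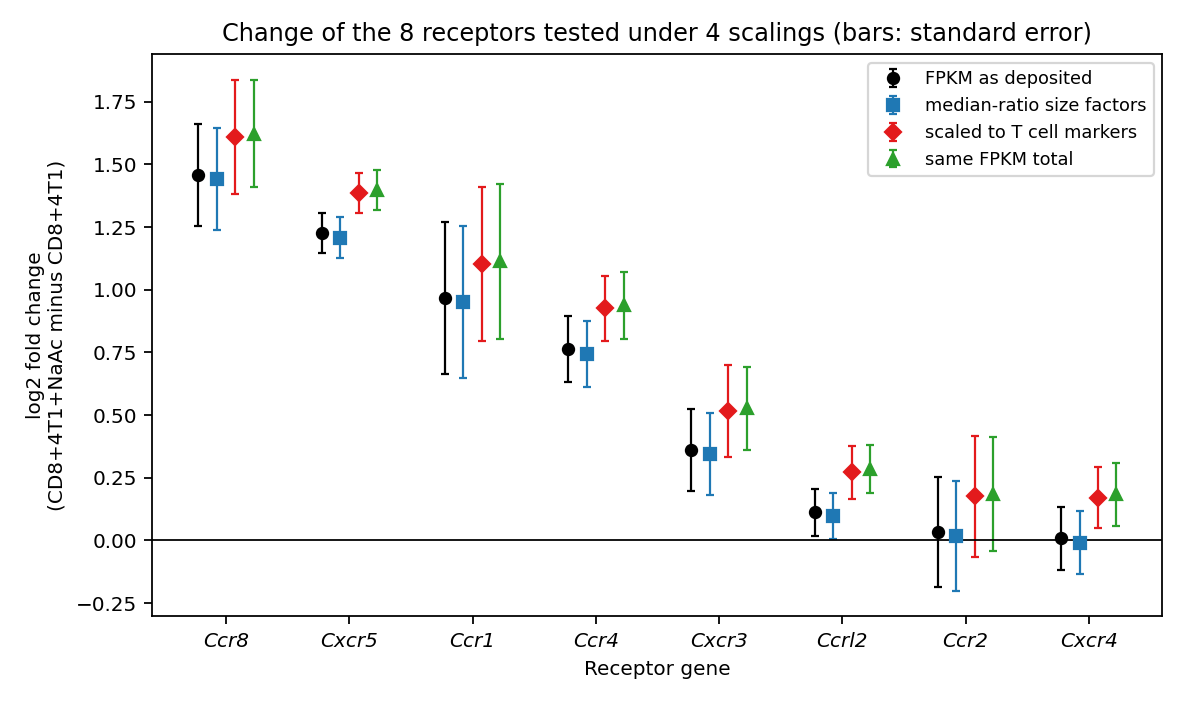
Log2 fold change (vertical axis, CD8+4T1+NaAc minus CD8+4T1; bars are SE) of the 8 receptors tested with FPKM as deposited (black circles), median-ratio size factors (blue squares), scaling to T cell markers (red diamonds) and the same FPKM total (green triangles). Both latter scalings raise every receptor, Cxcr4 from 0.01 to 0.17 and 0.18 respectively, and Cxcr4 is the one whose sign turns, to -0.01 with median-ratio factors.

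Other chemokine receptor genes were read in the same fit. Ccr7, which leads naive and central memory T cells into lymph nodes, was the most abundant receptor gene at 407.3 ± 34.5 and 511.7 ± 79.6 FPKM (SD, n = 5) and was called higher with overlap between the groups (0.32, SE 0.11, limma, adjusted p = 0.0439), a call lost with median-ratio size factors (adjusted p = 0.0581), without the minimum level (0.0731) and without trend and robust moderation (0.0592). The call of Ccr7 held at the same FPKM total (0.50, limma, adjusted p = 0.00286) and on T cell markers (0.48, adjusted p = 0.00125). It also held with voom (adjusted p = 0.0197) and with a block for the replicate number (0.0105). Of the 10 fits that left out 1 sample, 8 lost the call of Ccr7 (limma, adjusted p from 0.0632 to 0.101), all but those without CD8+4T1 replicate 5 or CD8+4T1+NaAc replicate 1. Ccr7 made up 88.8% ± 0.391 of the summed FPKM of all 23 receptor genes without acetate and 87.9% ± 1.71 with it. Cxcr6, the Cxcl16 receptor of tissue-resident T cells, was at 15.9 and 17.7 FPKM and was not called (limma, adjusted p = 0.0881). It was called higher at the same FPKM total (0.33, limma, adjusted p = 0.00238) and on T cell markers (0.32, adjusted p = 0.00188). With median-ratio size factors (adjusted p = 0.127) and with voom (0.128) it was not.

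A further 11 receptor genes were below the minimum, and without it 2 of them passed limma's test over 32272 genes. These were the atypical Cxcl12 receptor Ackr3 (1.94, SE 0.32, adjusted p = 0.0017) and the gut-homing receptor Ccr9 (0.95, SE 0.24, adjusted p = 0.0171), both named after their values were seen. Ackr3 had 1 to 7 fragments per sample in CD8+4T1 and 17 to 47 in CD8+4T1+NaAc, and Ccr9 had 10 to 24 and 41 to 73. The summed FPKM of the 9 receptors ran from 29.4 to 38.0 (median 31.3) without acetate and from 44.1 to 55.8 (median 46.2) with it, most of the difference in Ccr4.

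Ligand genes of the 9 receptors were measured in the same RNA. Of 18 such genes, 10 reached the minimum level, 7 were called higher and 0 lower (background 17.6% higher; 0 lower also at an unadjusted p under 0.05 and with voom), 3 were not called, and their median change was 1.47 beside -0.02 over all genes tested. Ccl2, the main Ccr2 ligand, went from 0.951 ± 0.442 to 6.73 ± 2.11 FPKM (2.74, SE 0.28, limma, adjusted p = 5.48e-05). Cx3cl1 went from 0.572 ± 0.189 to 4.28 ± 1.66 FPKM (2.67, SE 0.27, limma, adjusted p = 5.91e-05). Cxcl9, an interferon-induced Cxcr3 ligand, went from 0.269 ± 0.147 to 1.38 ± 0.925 FPKM (1.89, SE 0.48, limma, adjusted p = 0.0106). All 3 were higher in 5 of 5 acetate samples than in any sample without acetate. Cxcl9 and Ccl6 (0.315 FPKM without acetate) entered these counts through their acetate samples alone.

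The remaining called ligands were Ccl5 (1.63), Ccl9 (1.49), Cxcl10 (0.84) and Ccl3 (0.65), and Ccl3 was the most abundant at 219.9 and 343.9 FPKM. Ligands of the receptors that were higher did not follow one pattern. Ccr4 was higher while its ligands Ccl22 (3.61 ± 0.438 and 2.87 ± 1.10 FPKM, limma, adjusted p = 0.189) and Ccl17 (1.44 ± 0.527 and 1.12 ± 0.653 FPKM, limma, adjusted p = 0.431) were not called. Cxcl13, the ligand of Cxcr5, was at 0.157 FPKM or less in every sample and Ccl1, the ligand of Ccr8, at 0.261 ± 0.187 and 0.639 ± 0.508 FPKM below the minimum. Ccr1 was called higher, as were its ligands Ccl3, Ccl5 and Ccl9, while its ligand Ccl6 was not (1.45, SE 0.62, limma, adjusted p = 0.0894). Most tested markers of 4T1 and epithelial cells moved with the ligands and with the receptors called higher. Among them were Fn1 (3.70, SE 0.23), Krt8 (3.33, SE 0.35) and Col4a1 (3.12, SE 0.30). The limma adjusted p of each was below that of Ccr8. Epcam (0.41, limma, adjusted p = 0.305) and Cldn7 (-0.003, adjusted p = 0.994) were tested and not called. The part of 4T1 and epithelial cells in these results was not tested.

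**Figure D4:**
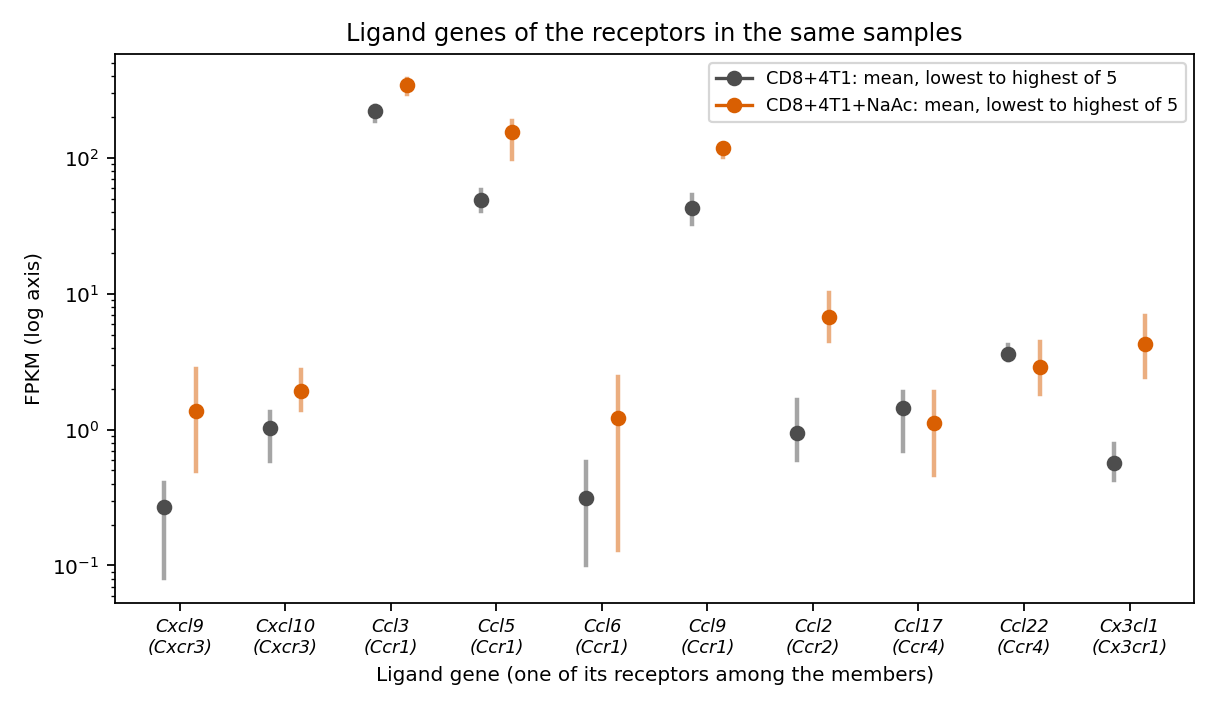
FPKM (logarithmic vertical axis) of the 10 ligand genes above the minimum level, each with one of its receptors in brackets; points are means and bars run from the lowest to the highest of 5 samples, grey for CD8+4T1 and orange for CD8+4T1+NaAc. The groups separate for the 7 ligands called higher, from Ccl3 at 219.9 and 343.9 FPKM to Cxcl9 at 0.269 and 1.38 FPKM, and overlap for Ccl6, Ccl17 and Ccl22.

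Of 22 genes of the signalling chain below the receptors, all tested, 7 were called higher and 4 lower, with a median change of 0.11, where 17.6% of all genes tested were called higher and 19% lower. At the same FPKM total the split was 15 and 2, against 4918 and 1386 of all 15756 genes tested under that scaling. Pik3r6, a regulatory subunit of phosphoinositide 3-kinase gamma, had the largest change, from 0.758 ± 0.111 to 2.79 ± 0.225 FPKM (1.76, SE 0.12, limma, adjusted p = 1.2e-05). Prex1, a Rac exchange factor that G protein subunits activate, changed by 0.58 (SE 0.05), and Plcb3, a phospholipase C, by 0.56 (SE 0.10). Rap1a, a small GTPase that switches on integrins, was lower at -0.52 (SE 0.08, limma, adjusted p = 0.000436), and so was Gnb1, a G protein beta subunit (-0.37, SE 0.06), which missed the threshold when scaled to T cell markers (adjusted p = 0.0796). Of the genes that were not called, the most abundant were Gnai2 (137.2 and 135.7 FPKM), an inhibitory alpha subunit, and Cdc42 (120.2 and 106.4 FPKM).

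Among 12 tested genes of receptor desensitisation, 1 was called higher and 2 lower, and the median change was 0.02, where 36.5% of all genes tested were called. At the same FPKM total 5 were higher and 2 lower, under the scaling that called 4918 and 1386 of all genes. Rgs2, which speeds the switching off of G protein alpha subunits, fell from 59.9 ± 5.24 to 33.0 ± 2.40 FPKM without overlap (-0.86, SE 0.07, limma, adjusted p = 2.4e-05). Arrb1, encoding beta-arrestin 1, fell from 7.65 ± 1.15 to 5.02 ± 0.0699 FPKM (-0.59, SE 0.09, limma, adjusted p = 0.000672). Grk6, a receptor kinase, was at 0.19 (SE 0.06, limma, adjusted p = 0.0269), a call lost with the replicate block (adjusted p = 0.0579) and in 6 of the 10 fits with a sample left out (0.0534 to 0.0642), those without replicate 2 or 3 of CD8+4T1 or replicate 2, 3, 4 or 5 of CD8+4T1+NaAc. The abundant Rgs16 (59.0 and 61.7 FPKM) and Grk2 (50.5 and 53.1 FPKM) were not called.

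Markers of other cells that carry these receptors were read in the same samples. Cd4 was at 0.541 ± 0.169 and 1.60 ± 0.187 FPKM and was called higher (1.44, SE 0.20, limma, adjusted p = 0.000317), whereas Foxp3, which defines regulatory T cells, was at 0.221 ± 0.0663 and 0.179 ± 0.102 FPKM. Of 4 genes of CD4+ and regulatory T cells, 1 of the 3 tested was called. The summed FPKM of the 4 ran from 26.7 to 31.2 without acetate and from 21.7 to 29.4 with it. Most of this sum came from Zbtb7b (13.5 and 12.4 FPKM) and Ikzf4 (13.9 and 11.0 FPKM), neither called in the main fit. Ikzf4 of this list was lower with voom (-0.36, adjusted p = 0.0344) and missed the threshold in the main fit (-0.35, limma, adjusted p = 0.0627). Of 12 myeloid genes 2 of the 6 tested were called higher, Lyz2 (0.96, SE 0.31) and Mpeg1 (0.95, SE 0.26). The summed FPKM of the 12 overlapped at 28.1 to 38.2 and 30.3 to 34.8. Most of this sum came from Cd68 (25.8 and 22.8 FPKM), which was not called. Csf1r was at 0.0707 and 0.0860 FPKM and C1qb at 0. The call of Lyz2 was lost in 6 of the 10 fits with a sample left out, those without replicate 2, 3, 4 or 5 of CD8+4T1 or replicate 3 or 4 of CD8+4T1+NaAc (limma, adjusted p from 0.0573 to 0.0853), and without the minimum level. The part of these cells in the levels of Ccr4, Ccr8 and Ccr1 was not tested.

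S100a8, a neutrophil gene, was higher (0.398 ± 0.318 and 2.94 ± 1.13 FPKM) while S100a9 and Retnlg were at 0. It was the only 1 of 6 neutrophil genes at the minimum level, which it reached through its acetate samples alone. Below that level Mpo (0.118 and 0.0203 FPKM) and Elane (0.159 and 0.0850 FPKM) had lower means with acetate. Csf3r had a higher one (0.00654 and 0.0198 FPKM), and each of these genes overlapped between the groups. Limma without the minimum gave -0.75 for Mpo (adjusted p = 0.152). Kit, known from mast cells and progenitors, was higher at 2.90 ± 0.371 and 6.12 ± 1.01 FPKM. It was the only 1 of 5 mast cell and basophil genes at the minimum level. The other 4, such as Cpa3 at 0.438 and 0.479 FPKM, were not called in limma without the minimum either. Genes of dendritic cells (0 of 2 tested called in limma, 0 of 2 at an unadjusted p under 0.05 and 0 of 2 with voom) and NK cells (0 of 4 at the minimum level) summed to overlapping ranges of 2.53 to 3.71 and 2.19 to 3.37 FPKM, and of 0 to 0.195 and 0.0537 to 0.292 FPKM. Of 12 T cell genes, 6 were called lower and 1 higher, with a median of -0.18, Cd3d at -0.54 (SE 0.11) and Cd3e at -0.36 (SE 0.06), and at the same FPKM total 4 were lower and 4 higher with a median of -0.01. Their summed FPKM ran from 953.6 to 1065 in CD8+4T1 and from 887.3 to 987.3 in CD8+4T1+NaAc.

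Genes whose pattern over the 10 samples was most like that of Ccr4 and Ccr8 are given as a description. Among 10626 protein-coding genes, Sec61a2 (Pearson r = 0.975), Tnik (0.958) and Slc16a13 (0.957) were closest to Ccr4, and Phf20l1 (0.980), Tsc2 (0.979) and Gpaa1 (0.978) to Ccr8, on log2(FPKM + 0.1). The samples fall into 2 groups in which all 6 genes were higher with acetate, so that the group difference enters each r.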

How the data were processed

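RNA of purified mouse CD8+ T cells was sequenced by the authors in 10 samples. According to the submitters' processing notes reads were handled with fastp, HISAT2 2.0.5, StringTie 1.3.3b and featureCounts 1.5.0-p3; genome build, annotation and strand setting are not given in the sources used here. The authors deposited FPKM for 57825 genes, 1 column per sample and not pooled, and a further (other, unnormalized) column with the gene length. FPKM times gene length gave whole fragments for 100% of values (tolerance 0.1), and so the depth of 16306447 to 18853726 fragments per sample; intervals cover the spread between samples. The authors tested the groups with DESeq2. FPKM are not counts, so genes whose mean reached 0.5 FPKM were compared here with limma 3.58.1 (R 4.3.3, trend and robust moderation) on log2(FPKM + 0.1), with Benjamini-Hochberg adjustment over all 15710 genes. Single values were compared by exact permutation over all 252 ways to divide the samples 5 and 5. In simulated data of this design, limma called 90% of 50 genes raised by a log2 change of 1. It called 84.8% of 46 lowered by as much and 0.045% of 15554 unchanged genes. The simulation gave every gene the same dispersion, so these rates need not hold for genes whose samples spread more widely.

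The receptors and all gene lists were chosen with earlier results of these data known. All 9 receptors are named; of each other list the text names the 3 called genes with the largest change and up to 2 abundant genes that were not called, along with defining markers and genes it singles out after their values were seen. Some genes of these lists are counted in their list and not reported here by themselves. Promoters came from RefSeq (GRCm38.p6), and matches were sought on both strands. The labels number the replicates of each group 1 to 5, but nothing says that equal numbers share an animal. Alternatives were other pseudocounts (1 and 0.01), no filter or a mean of at least 5 FPKM, 3 other scalings, other moderation, array weights, a replicate block, voom, protein-coding genes alone, an adjusted p under 0.01 and samples left out.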

Additional observations from a re-analysis of the deposited data

Results flagged for a closer look

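Among 26 groups of 5 values examined for a sample set apart (18 of them of the receptors), 4 had a gap to the nearest sample above 0.71 of the whole range, where chance gives about 1 in 20 or 1.3. Ccr1 in CD8+4T1+NaAc replicate 2 was at 0.449 FPKM against 0.813 to 0.914 FPKM in the other 4 acetate samples, a gap of 0.828 of the range on the log2 scale. The same library referred to the most fragments, 18853726 against 16503701 to 17098249 in the rest of its group, a gap of 0.747. Without it the change of Ccr1 was 1.13 (limma, adjusted p = 0.0165). The number of genes above 0 FPKM was low in CD8+4T1 replicate 1, at 22291 against 23786 to 24054 (gap 0.848), and in CD8+4T1+NaAc replicate 1, at 20233 against 24681 to 25088 (gap 0.916). Without replicate 1 of both groups 3 receptors were called, and Ccr1 was at 0.92 (limma, adjusted p = 0.0595). No cause was tested for any of these.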

How the results depend on the processing

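Ccr8, Cxcr5 and Ccr4 kept their direction and call in each alternative in which they were tested; leaving out 1 sample at a time gave changes of 1.36 to 1.62, 1.19 to 1.27 and 0.68 to 0.84. With a pseudocount of 1 the change of Ccr8 fell below 1, to 0.94, while Cxcr5 was at 1.03 and Ccr4 at 0.72. Of the receptors, 4 were called, 6 at the same FPKM total, 5 on T cell markers, 2 of 3 tested at a mean of at least 5 FPKM, 3 at an adjusted p under 0.01, 3 without replicate 1 of both groups, and 3 to 4 with a sample left out. Ccr1 stayed higher at 0.39 (pseudocount 1) to 1.15 with all samples kept (adjusted p 0.0075 to 0.0342) and lost its call without any of 4 samples, without replicate 1 of both groups and at an adjusted p under 0.01. Cxcr4 turned to -0.00889 with median-ratio factors and to -0.00308 with array weights and ran from -0.0741 to 0.0896 with a sample left out; Ccr2 turned to -0.0454 with array weights and to -0.0930 without replicate 1 of both groups, and ran from -0.0518 to 0.150 with a sample left out. Neither was called in any of these.

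At a mean of at least 5 FPKM, 3733 genes were called over all genes (5742 otherwise), 203 with a change over 1 (1016 otherwise), 1 other receptor and 3 ligands. An adjusted p under 0.01 left 3702 genes, 0 other receptors and 7 signalling genes, and a pseudocount of 1 left 476 genes with a change over 1. Other receptors called numbered 1 with median-ratio factors, 1 without trend and robust moderation, and 1 to 3 with a sample left out. The same FPKM total gave 17 signalling and 7 desensitisation genes, T cell markers 6, array weights 7, leaving out replicate 1 of both groups 7, and leaving out 1 sample 2 to 6 desensitisation genes. Genes called over all genes ran from 4924 to 6930 with a sample left out. The cause of these shifts was not tested beyond the fewer genes or stricter threshold that some impose.

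With a block for the replicate number, 5399 genes and 4 receptors were called. Same-numbered samples correlated at -0.03 to 0.07, and replicates 1 and 4 alone matched their own number best. Such correlations cannot show whether equal numbers share an animal or culture, so the pairing of the samples stays unknown. Depth limits Cx3cr1 (0 to 14 fragments per sample), Ccr1 and Ccr8.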
